A study of Homo sapiens with 6 samples.

Results

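The HOX genes of H9, a long-established line of human embryonic stem cells, were examined by whole-genome bisulfite sequencing. This assay reads each cytosine as methylated or unmethylated, and the level of a region is the share of calls over its CpGs that were methylated, in percent. The 38 members analysed are 38 of 19809 protein-coding genes with a CpG in their promoter, chosen by name from the GENCODE annotation of GRCh37. They are 10 genes in each of the HOXA and HOXB clusters and 9 in each of the HOXC and HOXD clusters. Each was described by its promoter (from 1000 bp before to 500 bp after the canonical transcription start), by its body, and by the 1-kb windows that tile each cluster from its first to its last member. Conventional cells (3 libraries) were grown in FGF/KSR, which is serum replacement with bFGF. Reset cells (3 libraries) had been converted by DOX-inducible NANOG and KLF2 transgenes, then withdrawn from DOX and held in t2iL+Gö, which is titrated CHIR99021 with PD0325901, human LIF and the PKC inhibitor Gö6983. Both were kept on mouse embryonic fibroblast feeders in reduced oxygen, and whether the conventional libraries came from transfected cells is not given in the sources used here. The study calls the bisulfite libraries biological replicates. Neither it nor the labels say whether they came from separate resettings or cultures. The p-values thus rest on the spread between these libraries, which may be partly technical. For windows this spread was taken almost wholly from all windows together, not from the single window.

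HOX genes encode homeodomain transcription factors that give cells their position along the head-to-tail axis. Their order along the chromosome follows the order in which they are used along the body, with the low-numbered, anterior paralogues at one end of a cluster and the high-numbered, posterior paralogues at the other. In embryonic stem cells the clusters are known as broad domains held silent by Polycomb proteins, rich in CpGs that carry little methylation. Methylation of HOX promoters and of the stretches between them is best known from differentiated and cancer cells.

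The deposited libraries held 92023996 to 98004161 calls in the conventional group and 70329213 to 80199615 in the reset group, or 2.51 to 3.49 calls per CpG. Over all CpGs the level was 84.4% ± 0.161 in conventional and 30% ± 0.432 in reset cells (SD, n = 3 libraries each). Coverage of the clusters relative to the autosomes was higher in the reset group by a factor of 1.08 to 1.20, with the highest ratio in HOXA. Its part in the results was not tested.

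Stretches chosen by the change of their promoter or window are shown first. Each is a part of that promoter or window, so its own change partly follows from the choice. Each is 300 bases of the GRCh37 sequence, 5′ to 3′ on the strand of the gene, with every CpG in capitals. The first 3 lie directly upstream of the transcription starts of HOXD4, HOXD12 and HOXA2, the members whose promoters rose most.
HOXD4: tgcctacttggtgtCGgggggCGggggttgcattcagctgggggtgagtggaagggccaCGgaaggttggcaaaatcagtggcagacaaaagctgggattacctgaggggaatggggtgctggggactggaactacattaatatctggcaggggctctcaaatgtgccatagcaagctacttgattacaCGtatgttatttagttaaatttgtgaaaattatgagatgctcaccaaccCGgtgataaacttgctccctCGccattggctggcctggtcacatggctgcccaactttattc
HOXD12: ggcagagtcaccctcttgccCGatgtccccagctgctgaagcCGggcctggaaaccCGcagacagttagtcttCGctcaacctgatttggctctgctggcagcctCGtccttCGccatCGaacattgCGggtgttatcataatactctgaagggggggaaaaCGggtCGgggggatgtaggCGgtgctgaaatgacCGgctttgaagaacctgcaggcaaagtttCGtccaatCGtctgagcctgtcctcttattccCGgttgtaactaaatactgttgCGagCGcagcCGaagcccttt
HOXA2: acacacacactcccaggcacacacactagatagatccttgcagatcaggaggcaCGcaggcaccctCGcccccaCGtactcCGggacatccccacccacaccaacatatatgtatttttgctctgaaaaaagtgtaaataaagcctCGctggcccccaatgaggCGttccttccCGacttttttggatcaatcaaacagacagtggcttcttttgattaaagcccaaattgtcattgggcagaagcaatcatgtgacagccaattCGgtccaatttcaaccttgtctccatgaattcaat
The HOXD4 stretch (chr2:177015978-177016277, + strand) lies within the annotated span of HOXD3, before the canonical HOXD3 start. It held 6 CpGs and stood at 4.17, 10.5 and 3.85% in the conventional libraries and at 58.3, 51.5 and 54.2% in the reset libraries, with at least 12 calls in each. The HOXD12 stretch (chr2:176964223-176964522, + strand, between genes) held 18 CpGs and went from a mean of 4.52% to 54.0%. The HOXA2 stretch (chr7:27142303-27142602, - strand, between genes but for its end, which touches an exon of a HOXA2 transcript with a retained intron) held 8 CpGs and went from 2.50% to 49.1%. In each of these stretches every reset library lay above every conventional library, which partly follows from the choice of promoters.

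The next pair lies upstream of HOXA4 and HOXA13, the members whose promoter levels moved least.
HOXA4: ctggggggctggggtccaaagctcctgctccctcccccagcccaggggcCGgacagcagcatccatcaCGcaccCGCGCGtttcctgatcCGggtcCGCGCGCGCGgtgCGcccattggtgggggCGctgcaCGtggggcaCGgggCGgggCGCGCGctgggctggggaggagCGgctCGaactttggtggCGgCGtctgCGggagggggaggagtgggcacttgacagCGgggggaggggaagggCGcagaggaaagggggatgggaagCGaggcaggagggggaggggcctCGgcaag
HOXA13: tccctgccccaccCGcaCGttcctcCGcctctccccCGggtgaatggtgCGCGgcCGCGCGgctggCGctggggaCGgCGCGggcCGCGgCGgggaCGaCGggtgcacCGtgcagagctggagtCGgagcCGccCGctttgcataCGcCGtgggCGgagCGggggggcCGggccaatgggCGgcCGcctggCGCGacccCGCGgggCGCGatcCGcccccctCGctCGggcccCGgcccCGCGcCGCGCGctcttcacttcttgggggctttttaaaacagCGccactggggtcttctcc
The HOXA4 stretch (chr7:27170407-27170706, - strand, ending 31 bases before the start) held 28 CpGs, and its mean was 1.35% in conventional and 1.21% in reset cells. The HOXA13 stretch (chr7:27239711-27240010, - strand, within the span of the noncoding RNA HOTTIP) held 45 CpGs, with means of 0.275% and 2.37%. Both were denser in CpGs than the first 3, at a GC content of 74.0% and 77.0% against 47.7 to 55.7%. The last stretch is 300 bases of a HOXD3 exon outside any annotated UTR (chr2:177036511-177036810, + strand, GC content of 71%, 38 CpGs). It gained most of those shown. Since it was chosen as the part richest in CpGs of the window that rose most, its density and gain follow from that choice.
HOXD3 exon: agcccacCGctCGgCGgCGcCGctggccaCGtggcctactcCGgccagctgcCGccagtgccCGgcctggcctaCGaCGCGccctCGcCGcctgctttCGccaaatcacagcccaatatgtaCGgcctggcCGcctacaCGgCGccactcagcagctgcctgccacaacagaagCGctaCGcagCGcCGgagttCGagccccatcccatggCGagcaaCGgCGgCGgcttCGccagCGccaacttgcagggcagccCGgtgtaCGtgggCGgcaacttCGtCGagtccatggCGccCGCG
These bases were at 0, 0 and 1.79% in the conventional libraries and at 67.9, 84.1 and 63.8% in the reset libraries. Over the 38 promoters the number of CpGs (median 90) and the change correlated with a Spearman rho of -0.226 and a Pearson r of -0.229. This is a description across genes that share libraries and, within a cluster, chromosome neighbourhood.

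HOXA, HOXC and HOXD gained methylation while the genome lost it. HOXD (9 members, 3330 CpGs) rose from 11.6, 11.6 and 10.5% in the conventional libraries to 27.5, 25.8 and 27.5% in the reset libraries, a change of 15.7 points. HOXA (10 members, 3672 CpGs) rose from 11.7% ± 0.850 to 23.2% ± 0.558, and HOXC (9 members, 3414 CpGs) from 12.4% ± 0.0916 to 17.8% ± 0.415 (SD, n = 3). HOXB (10 members, 4819 CpGs) fell by 5.01 points, from 24.6% ± 0.798 to 19.6% ± 0.748. Taken as the mean over CpGs with at least 1 call, its change was -2.35 points. The reset and conventional libraries did not overlap in any cluster (two-sided exact permutation test, p = 0.1 each time; 3 libraries against 3 allow no smaller value, so that no such test can pass 0.05).

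Most of the windows that fell in HOXB, 68 of 82, lay in the long interval that separates HOXB13, a gene of the prostate and hindgut, from the rest of its cluster. From HOXB1 to HOXB9 the level was 11.4, 10.4 and 9.86% in the conventional and 17.3, 15.2 and 15.3% in the reset libraries, a rise of 5.38 points. Between HOXB9 and HOXB13 it went from 46.3% ± 0.106 to 26.0% ± 0.148 (SD, n = 3), a fall by 20.3 points. This split of HOXB was chosen after its values had been seen. The 94 windows from HOXB1 to HOXB9 had a median of 27 CpGs and the 95 windows of the interval a median of 12. Of all windows of the genome 98.3% were lower, a larger share than the 68 of 95 in the interval. From HOXB1 to HOXB9, 13 windows were lower, and 8 of these lay within chr17:46609001-46619000, from upstream of HOXB1 to the near end of HOXB2. Their falls ran from 12.3 to 62.1 points, the latter from 79.4% to 17.3%.

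Differences between the clusters were tested on the change itself, over 6 pairs. HOXD gained 4.20 points more than HOXA, 10.2 more than HOXC and 20.7 more than HOXB. HOXA gained 6.02 points more than HOXC. In each pair the difference between the clusters did not overlap between the groups of libraries (exact permutation test, two-sided p = 0.1, adjusted p = 0.1 over 6 pairs). With HOXB taken from HOXB1 to HOXB9, its change and that of HOXC differed by 0.101 points (exact permutation p = 0.7), which the 3 libraries of each group do not separate. On that span HOXA gained 6.12 points more than HOXB, in place of 16.5, and HOXD 10.3 more.

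The chromosome on either side of the clusters lost methylation around all 4 clusters, around HOXB too, which itself fell. Over the 100 kb on both sides, levels fell from 51.8% to 32.8% around HOXA, from 63.7% to 31.2% around HOXB, from 57.0% to 23.8% around HOXC and from 56.6% to 33.1% around HOXD. The level of a cluster minus that of its flanks was -45.4 to -39.1 points in conventional and -11.5 to -5.99 points in reset cells. The difference of change was 39.2 points for HOXD, 38.7 for HOXC, 30.4 for HOXA and 27.6 for HOXB (two-sided exact permutation test, p = 0.1 each). Its positive sign was fixed in advance, since no cluster held enough methylation to fall as far as these flanks. The clusters started at 11.2 to 24.6%, and their flanks lost 18.9 to 33.2 points. The sizes of the differences, and the order of HOXC and HOXD, depended on the length of the flanks. With 50 kb on each side the values were 21.2, 25.8, 18.8 and 15.1 points for HOXD, HOXC, HOXA and HOXB, and with 250 kb 55.1, 47.1, 47.1 and 39.7. The flanks hold genes of their own and were not alike. Next to HOXD13, where EVX2 lies, the flank fell by 6.18 points, and beyond HOXD1 by 54.3 points. Next to HOXA13, where HOTTIP and EVX1 lie, it fell by 7.56 points, and on the other side by 35.0 points. These sides, next to the posterior genes of HOXD and HOXA, already stood at 40.8% and 39.0% in conventional cells, against 84.8% and 70.0% on the far sides. HOXC showed the reverse, with a flank next to HOXC13 that stood at 61.4% and fell by 36.2 points and a far side that stood at 52.4% and fell by 29.9. The flank next to HOXB13 stood at 55.2% and fell by 25.6 points, and the far side stood at 75.4% and fell by 42.1.

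**Figure D1:**
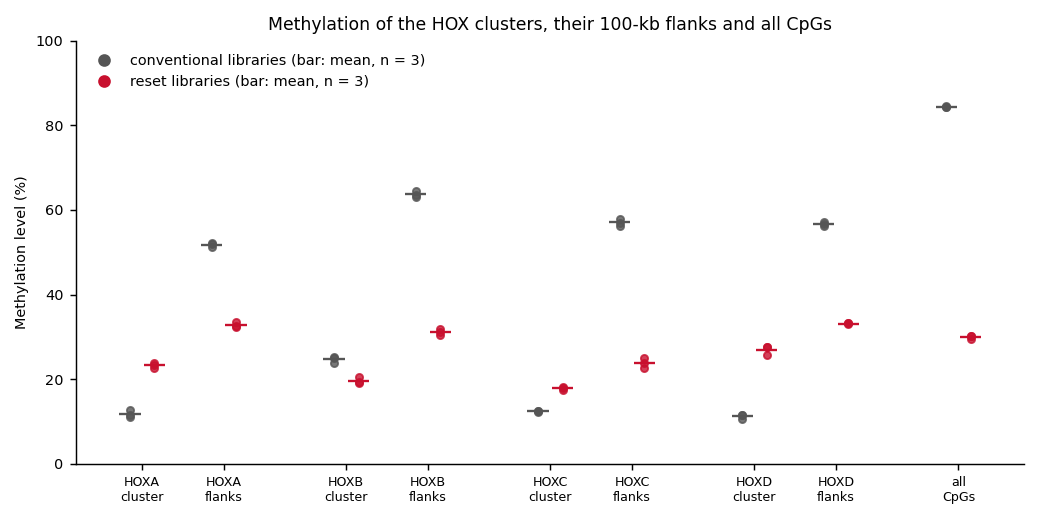
Methylation level (%, vertical axis) of each HOX cluster, of its 100-kb flanks and of all CpGs, with 1 point per library (grey, conventional; red, reset) and a bar at the mean of 3. The red points lie above the grey points in HOXA, HOXC and HOXD and below them in HOXB, in all flanks and over all CpGs.

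Windows that gained methylation lay in all 4 clusters. Of 520 windows with a CpG, 502 had at least 10 calls in every library and were tested, 228 of which were higher and 113 lower in reset cells. Of all 2060730 windows tested, 0.421% were higher and 98.3% lower. A window was called raised when it passed the test, rose by at least 10 points and kept the reset libraries clear above the conventional ones. This held for 164 HOX windows and for 0.249% of all windows, so that the clusters held 3.20% of all raised windows of the genome. Since the clusters started low, they were also set against low windows alone. Among windows under 20% in conventional cells, 142 of 314 HOX windows were raised (45.2%) and 14.0% of all such windows. Raised windows numbered 47 of 99 in HOXA, 42 of 96 in HOXD, 33 of 113 in HOXC and 42 of 194 in HOXB. Of the 42 in HOXB, 33 lay from HOXB1 to HOXB9. The 164 raised windows formed 79 runs of neighbours, single windows included.

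The largest rises lay around the HOXD3 and HOXD4 genes, anterior members that act in the hindbrain and neck. The window at chr2:177036001-177037000, over an exon of HOXD3, was at 1.65, 1.89 and 1.61% in the conventional libraries. In the reset libraries it was at 66.4, 64.5 and 71.2% (quasi-binomial model, adjusted p = 3.606e-74). By the same model this became 2.653e-26 with at least 30 calls in every library and 0.00129 with replicate number as a block. The size of such window p-values owes little to the spread of the window itself, since the dispersion prior had 988 degrees of freedom. The window that holds the HOXD4 start (chr2:177016001-177017000) was at 3.41, 3.09 and 3.66% and at 74.0, 50.3 and 67.4%, and its neighbour over the HOXD4 exons rose by 58.2 points. The groups were far apart in each, and reset library 2 was the lowest at the HOXD4 start. A further pair of HOXD3 windows, at chr2:177025001-177026000 (exonic) and chr2:177027001-177028000 (intronic), rose by 57.5 and 52.2 points. The longest run of neighbouring raised windows was also in HOXD: 8 windows in a row at chr2:176963001-176971000 covered HOXD12, a posterior gene of limb and hindgut, and the stretch before HOXD11. In that run the window over an exon of HOXD12 (chr2:176965001-176966000) rose from a mean of 6.25% to 59.8%. A window before the canonical start of HOXD11 (chr2:176970001-176971000) rose from 4.52% to 57.4%.

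HOXA came next. Its largest rise, at chr7:27163001-27164000 within an intron of HOXA3 and over an exon of the antisense RNA HOXA-AS2, went from 9.25, 9.02 and 4.38% to 68.0, 59.2 and 63.7%. Its longest run held 7 raised windows at chr7:27139001-27146000, over and before HOXA2. The longest runs of HOXC and HOXB held 5 (chr12:54360001-54365000) and 4 windows (chr17:46639001-46643000). No window of the 8 largest rises came from HOXB or HOXC.

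The windows that fell most had been methylated before. The largest fall without overlap in each cluster was 76.9 points in HOXB (chr17:46770001-46771000, in the HOXB9 to HOXB13 interval, from 80.9% to 3.94%, on 4 CpGs) and 52.7 points in HOXD (chr2:177008001-177009000, before the canonical HOXD3 start, from 76.2% to 23.5%). In HOXC it was 52.4 points (chr12:54435001-54436000, before the canonical HOXC4 start, from 69.0% to 16.6%) and in HOXA 29.7 points (chr7:27234001-27235000, over a HOXA13 exon, from 54.1% to 24.4%). Windows over 50% numbered 100 in conventional and 49 in reset cells, with 76 and 14 of them in HOXB. They numbered 4 and 13 in HOXA, 16 and 18 in HOXD, and 4 and 4 in HOXC. Of all 2060730 windows tested, 1995962 stood over 50% in conventional and 200245 in reset cells, against 502 HOX windows tested.

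**Figure D2:**
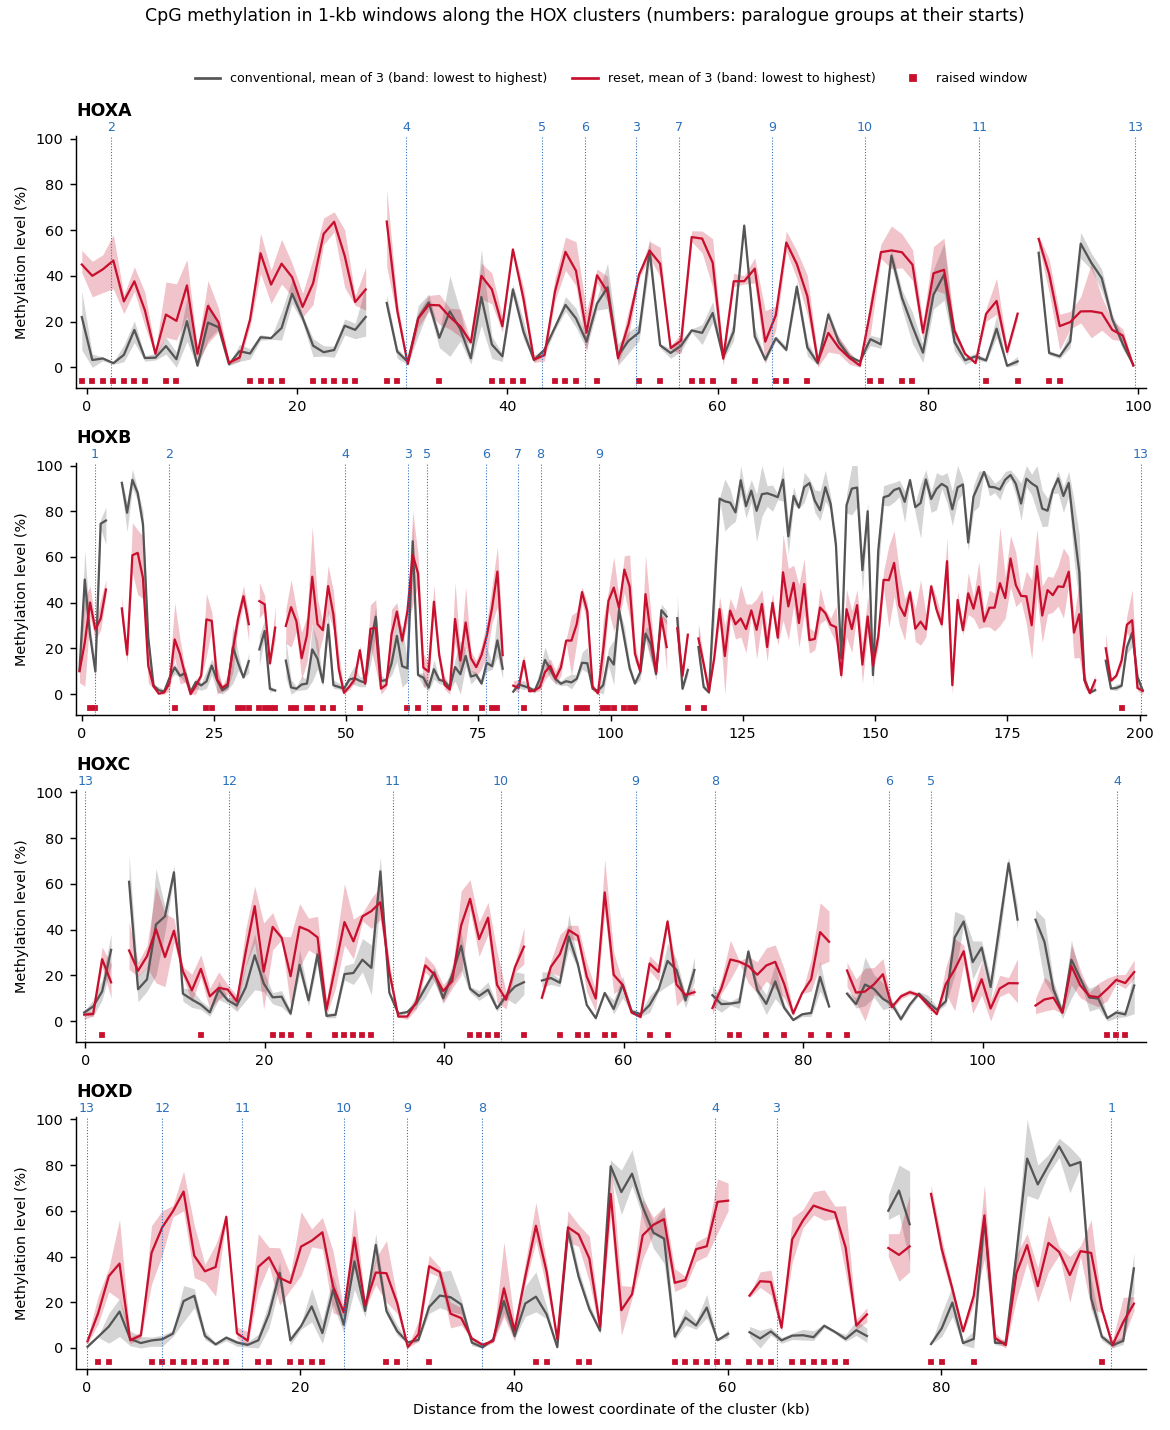
Methylation level (%, vertical axis) of 1-kb windows against the distance from the lowest coordinate of each cluster (kb), as the mean of 3 conventional (grey) and 3 reset (red) libraries with a band from the lowest to the highest. Dotted lines with numbers mark the starts of the members by paralogue group, and red squares mark the 164 raised windows, which form runs of up to 8, while the interval before HOXB13 falls.

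Sorted by CpG content, dense HOX windows rose, while the change of sparse ones depended on the interval before HOXB13. HOX windows with 1 to 10 CpGs went from 50.6% to 35.1%, and those with 11 to 20 CpGs from 36.5% to 32.1%. Of the sparsest class 54 of 113 windows were lower, 21 higher and 16 raised, and of the next 43 of 128 were lower, 47 higher and 38 raised. Over all windows of these classes 99.4% and 99.1% were lower and 0.0392% and 0.198% higher, with levels from 88.8% to 27.4% and from 88.7% to 35.5%. The interval held 34 of the 54 and 31 of the 43 lower windows. Without it, an alternative chosen after the data had been seen, the sparsest class went from 36.1% to 34.3% and the next rose from 22.2% to 29.8%. Those with 21 to 40 CpGs rose from 12.2% to 24.8% and those with 41 or more from 5.64% to 15.4% (p = 0.1 in each class, two-sided exact permutation test). All windows of the genome with 21 to 40 CpGs went from 83.2% to 35.8% and those with 41 or more from 32.3% to 14.7%. Of the densest class 60 of 155 HOX windows were raised (38.7%), and 5.25% of all windows of that class.

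A few HOX promoters rose strongly and most moved little. All 38 promoters had at least 10 calls in every library, and all 38 were under 20% in conventional cells, at 0.780 to 17.6%. In reset cells 15 were higher, 2 were lower and 21 did not pass the test (quasi-binomial model, Benjamini-Hochberg adjustment over 19293 promoters). Over all promoters 3.98% were higher and 67.4% lower, and of the promoters under 20% in conventional cells 6.55% were higher and 47.1% lower. The median change was 3.23 points over the members and -9.59 points over all promoters. By cluster, 6 of 9 HOXD, 4 of 10 HOXA, 3 of 10 HOXB and 2 of 9 HOXC promoters were higher.

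Anterior members (paralogue groups 1 to 4) pattern the hindbrain, the pharyngeal arches and the neck, and 8 of the 11 were higher. HOXD4 was at 3.23, 7.10 and 6.74% in the conventional libraries and at 76.7, 50.3 and 65.1% in the reset libraries, a rise of 58.4 points (adjusted p = 3.620e-07). HOXA2, which sets the identity of the second pharyngeal arch, was at 1.69, 2.73 and 3.36% and at 32.3, 44.3 and 45.3%, a rise of 38 points (adjusted p = 1.785e-07). These were the widest gaps among the anterior members, and in both the lowest reset library stood far above the highest conventional one. HOXA3, needed for thymus and parathyroid, was at 17.8, 15.6 and 11.7% and at 45.9, 41.7 and 39.2%. HOXB3, its paralogue in the hindbrain, was at 19.6, 11.4 and 13.9% and at 41.1, 31.6 and 41.9%. Both started higher than most members and rose without overlap, by 27.2 and 23.2 points. The canonical transcripts of both genes begin beyond their neighbours, so that these promoters lie between HOXA6 and HOXA7 and between HOXB4 and HOXB5, away from the coding exons. HOXC4 rose by 14.2 points to 17.9% ± 2.37 and HOXD3 by 12.1 points to 17.5% ± 1.98 (SD, n = 3). The anterior members not called were HOXB2 and HOXA4, with mean changes of -0.781 and 0.0406 points.

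The remaining anterior calls lay close to the threshold. HOXB1, a marker of the fourth rhombomere, was at 19.0, 17.4 and 16.3% and at 29.6, 24.0 and 28.9% (adjusted p = 0.0455). Its call was lost without conventional library 1, 2 or 3 (adjusted p = 0.0577, 0.0888 and 0.0915) and without reset library 1 or 3 (0.10 and 0.110), with changes of 8.84 to 10.6 points in these 5 fits against 9.89 with all libraries. Taken from 2000 bp before the start, its promoter changed by -2.67 points (0.543). HOXD1, with roles in sensory neurons, rose by 3.37 points, and its libraries overlapped (4.0, 2.76 and 1.32% against 3.32, 6.71 and 8.17%, adjusted p = 0.0297). That call was lost without conventional library 2 or 3 (0.0684 and 0.0988) and without reset library 2 or 3 (0.0863 and 0.127), with changes of 2.32 to 3.41 points. HOXB4, known for expanding blood stem cells when overexpressed, fell by 2.59 points, from 3.31, 3.48 and 4.55% to 2.52, 1.05 and 0% (adjusted p = 0.0486). It was no longer called without conventional library 1, 2 or 3 (0.0626, 0.0717 and 0.110) or without reset library 2 or 3 (0.139 and 0.131).

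Central members (groups 5 to 8) pattern the neck and thorax, and of these 11 promoters 1 was higher and 1 lower. HOXB6 was at 12.6, 20.6 and 13.3% in the conventional and at 34.4, 27.3 and 34.4% in the reset libraries (adjusted p = 0.00224). HOXB8, at 8.63, 9.66 and 6.60%, fell to 3.70, 2.87 and 4.68% (adjusted p = 0.0105). The groups did not overlap in either, so that near neighbours in one cluster moved in opposite directions. HOXA5, HOXA6 and HOXA7 showed a wide spread in the reset libraries, for example 30.2, 14.4 and 16.2% at HOXA6 against 14.8 to 15% in the conventional libraries. HOXA6 and HOXA7 were called higher without reset library 2 (0.0326 and 0.0294), and HOXA5 was called lower without reset library 1 (0.0278).

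Posterior members (groups 9 to 13) pattern the lumbar to caudal axis, the limbs and the urogenital tract, and 6 of these 16 promoters were higher. HOXD12 was at 5.60, 4.51 and 1.60% in the conventional libraries and at 62.5, 57.2 and 42.5% in the reset libraries, a rise of 50.1 points (adjusted p = 1.111e-07). HOXD13, a gene of digit formation, was at 5.11, 3.11 and 1.49% and at 22.2, 12.7 and 21.6%. HOXA9, an oncogenic driver in myeloid leukaemia, rose from 11.1% ± 0.475 to 26.0% ± 3.88 (SD, n = 3). Reset library 2 or 3 was the lowest in each of HOXD12 and HOXD13, and all reset libraries stayed above all conventional ones. HOXA11, a gene of the forearm and uterus, rose by 8.09 points (adjusted p = 8.910e-04). HOXC11 rose by 5.96 points (adjusted p = 0.0281), but not without conventional library 1 (0.0806) or without reset library 1 or 3 (0.0723 and 0.0735). HOXD11, a limb gene, went from 1.36% to 4.45% (adjusted p = 0.00845), and its adjusted p was 0.0551 without reset library 2. HOXC12, whose libraries did not overlap (9.35, 7.80 and 10.9% against 13.1, 13.2 and 15%), missed the threshold at an adjusted p of 0.0539 and passed without conventional library 3 (0.0437). HOXD10 passed without conventional library 2 (0.0421).

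By paralogue group, 8 of 11 anterior, 1 of 11 central and 6 of 16 posterior promoters were higher, and these counts were not tested against each other. The bodies did not show the same counts, with 8 of 11 anterior, 8 of 11 central and 9 of 16 posterior bodies higher. Over all bodies 1.15% were higher, and 44.3% of those under 20% in conventional cells. In the 2000 bp upstream of the core, which is the 500 bp on either side of the start, every reset library lay above every conventional one in 7 of 11 anterior, 6 of 11 central and 13 of 16 posterior members, against 1.78% of all genes. Among the central members HOXC8 lay below, at 34.7% and 20.3%, and the groups overlapped in 4. All genes started far higher there in conventional cells, at 73.4% against 13.4% over the members from -2000 to -1501 bp. Pooled over all calls, anterior promoters went from 6.72, 6.17 and 5.58% to 21.9, 18.7 and 20.7%, a rise of 14.3 points. Central promoters were at 7.39, 8.78 and 7.73% and at 11.6, 7.24 and 8.0%, a difference of 0.986 points with overlapping groups (exact permutation test, two-sided p = 0.7). Posterior promoters rose from 5.63% ± 0.765 to 12.6% ± 0.394 (SD, n = 3). The change of the anterior class exceeded that of the central class by 13.3 points and that of the posterior class by 7.32 points, and the posterior class exceeded the central by 5.98 points (exact permutation test, two-sided p = 0.1 and adjusted p = 0.1 for each). With promoters from 500 bp before to 500 bp after the start, anterior minus central was 16.4 points. Anterior minus posterior was then 12.4 and central minus posterior -4.02 points. The classes follow paralogue number and not always position. The anterior class includes HOXA3 and HOXB3, whose promoters lie between HOXA6 and HOXA7 and between HOXB4 and HOXB5. Class values without these genes were not taken. Members of one paralogue group did not share a level. In group 4, HOXD4 rose by 58.4 points, HOXC4 by 14.2, HOXA4 differed by 0.0406, and HOXB4 fell by 2.59. The promoter count depended on the interval: 8 promoters were higher between 500 bp before and 500 bp after the start, and 21 from 2000 bp before it. Over the shorter interval the calls for HOXA9 (2.83 points, adjusted p = 0.687), HOXA11 (2.46, 0.244), HOXB6 (9.42, 0.207), HOXD13 (2.06, 0.134), HOXC11 (1.70, 0.583), HOXD11 (0.235, 0.656), HOXD1 (1.65, 0.235) and HOXB4 (-0.832, 0.533) ended. Over the longer interval 13 of the 15 higher calls stayed, while those for HOXC11 (1.57 points, adjusted p = 0.681) and HOXB1 (-2.67, 0.543) ended, as did the lower calls for HOXB8 (-2.35, 0.172) and HOXB4 (-1.66, 0.163).

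**Figure D3:**
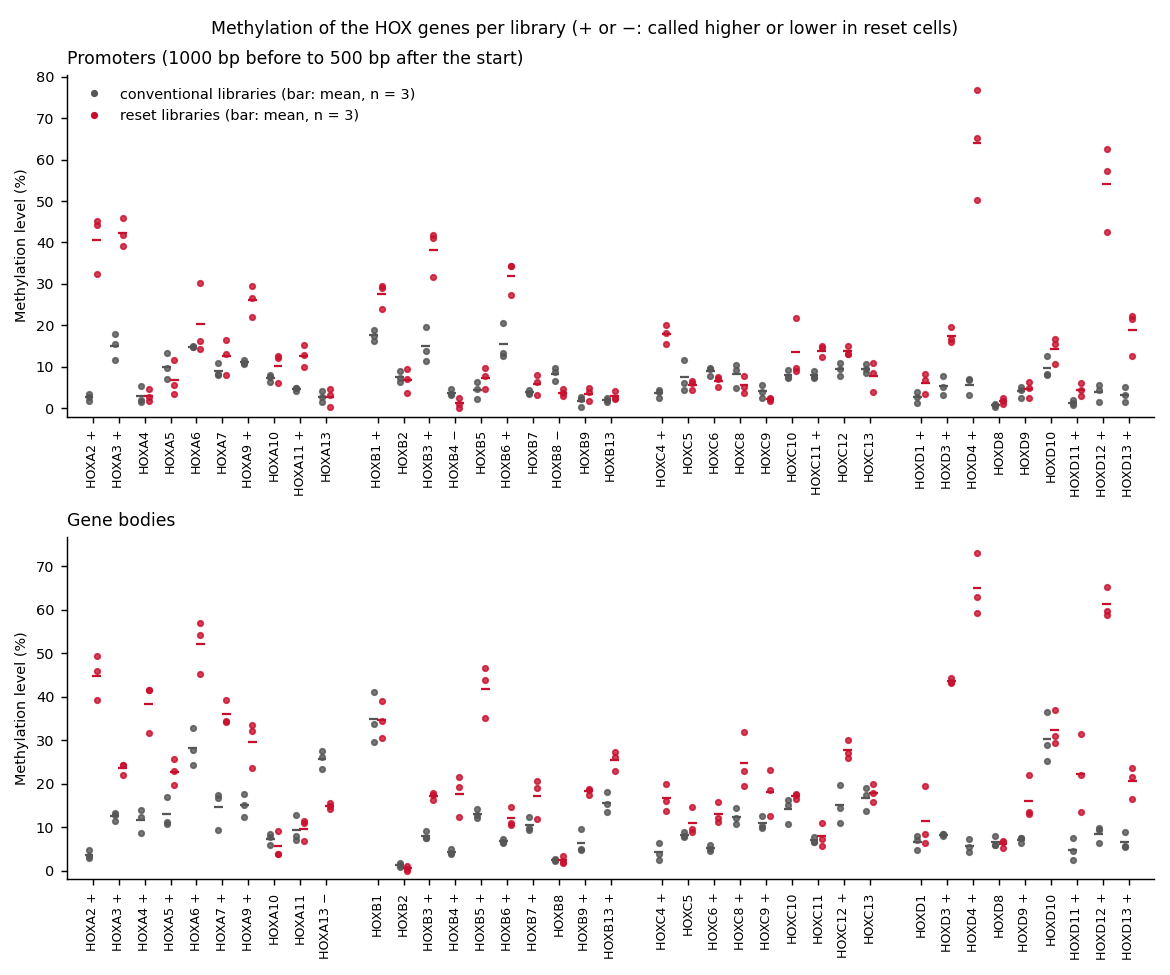
Methylation level (%, vertical axis) of the promoter (upper panel) and body (lower panel) of each HOX gene, ordered by cluster and paralogue group, with 1 point per library (grey, conventional; red, reset) and a bar at the mean of 3. A + or − after a name marks a call, and the red points of HOXD4, HOXD12 and HOXA2 stand far above their grey points in both panels.

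Most HOX gene bodies gained methylation. Of 38 bodies, all with enough calls, 25 were higher, 1 was lower and 12 did not pass the test, whereas 1.15% of all 19148 bodies were higher and 97.8% lower. The median change was 9.45 points over the members and -51.2 points over all bodies. Most HOX bodies started low. Among bodies under 20% in conventional cells, 24 of 34 HOX bodies and 44.3% of all 461 such bodies were higher. Promoter and body were both higher in 11 members, the body alone in 14, the promoter alone in 4 and neither in 9. Such joint counts were not taken over all genes, so they have no background here.

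The body of HOXD4 was at 5.47, 7.22 and 4.20% in the conventional libraries and at 59.3, 73.0 and 63.0% in the reset libraries. The body of HOXD12 was at 9.73, 6.37 and 9.40% and at 65.2, 59.8 and 58.8%. That of HOXA2 was at 3.31, 4.67 and 3.01% and at 49.3, 45.8 and 39.3%. In these genes promoter and body rose together and to like levels. HOXD3 differed between its parts: its body rose from 8.22% ± 0.262 to 43.6% ± 0.647 (SD, n = 3), or by 35.3 points, and its promoter by 12.1. HOXB5, a central gene active in gut neurons and lung, rose by 28.9 points over its body (12.1, 12.7 and 14.2% against 35.2, 43.8 and 46.6%) while its promoter missed the threshold (4.42% against 7.38%). The body that fell was that of HOXA13, a gene of digits and hindgut, from 27.5, 23.4 and 26.1% to 14.9, 14.2 and 15.5% (adjusted p = 2.803e-05). Some bodies share CpGs, since that of HOXA3 contains those of HOXA4, HOXA5 and HOXA6 and that of HOXB3 contains that of HOXB4. The calls for HOXC9 and HOXB7 depended on single libraries. HOXC9 was lost without conventional library 2 or 3 (adjusted p = 0.0676 and 0.0622) or reset library 1 or 3 (0.216 and 0.0634), and HOXB7 without reset library 2 or 3 (0.0720 and 0.0616). HOXA10 became lower without reset library 1 (0.0176) and HOXD1 higher without reset library 3 (0.0381).

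Around the starts of the members the gain was smaller at the start than 1000 to 2000 bp away from it on either side. In steps of 500 bp, the level over all members went from 5.51% to 10.5% just before the start and from 4.58% to 10.1% just after it. In the step from -1500 to -1001 bp it went from 15.4, 13.2 and 14.4% in the conventional libraries to 31.9, 34.9 and 33.4% in the reset libraries, and from 1500 to 1999 bp after the start from 10.2% to 26.2%. Farther out the gain was not always larger than at the start. It was 3.10 points from -4000 to -3501 bp, against 5.04 just before and 5.51 just after the start. Other members start at such distances, such as HOXB5 upstream of HOXB3, and their part in the outer steps was not tested. The groups of libraries did not overlap at any step from -5000 to 4999 bp. Over all protein-coding genes the same profile fell at every step, from 12.2% to 5.17% just after the start and from 73.4% to 26.4% in the step from -2000 to -1501 bp. HOX starts thus kept a dip in reset cells, with a rim of higher levels on both sides.

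Member by member, the 500 bp on either side of the start were compared with the next 2000 bp upstream and downstream, leaving out bases within 500 bp of another member's start. At the core every reset library lay above every conventional library in 11 of 38 members, on the upstream side in 26 and on the downstream side in 20. The same held for 6.27%, 1.78% and 2.87% of all genes. Over all genes the sides started far higher in conventional cells, at 73.4% against 13.4% over the members from -2000 to -1501 bp. A share among genes with low sides was not taken, so this background is not a like one. The median change was 0.716 points at the core, 15.4 upstream and 7.26 downstream, and the upstream change exceeded the core change in 27 of 38 members. HOXD11 is an example, at 0.571, 1.54 and 0.855% against 0, 3.67 and 0% in its core and at 3.85, 3.75 and 2.39% against 44.6, 44.6 and 39.9% upstream. HOXA7 was at 13.5, 18.7 and 17.9% against 54.2, 58.6 and 57.2% upstream, with a core change of 0.662 points. HOXD13 rose by 35.8 points upstream and by 2.06 at its core. HOXD4, HOXD12 and HOXA2 were exceptions, with core changes of 59.0, 49.4 and 41.2 points that exceeded their upstream changes of 29.6, 19.7 and 24.6. HOXB1 was reversed, with a core that rose by 19.6 points next to an upstream side that fell by 33.6 points from 74.6%. These examples were chosen after their values had been seen.

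**Figure D4:**
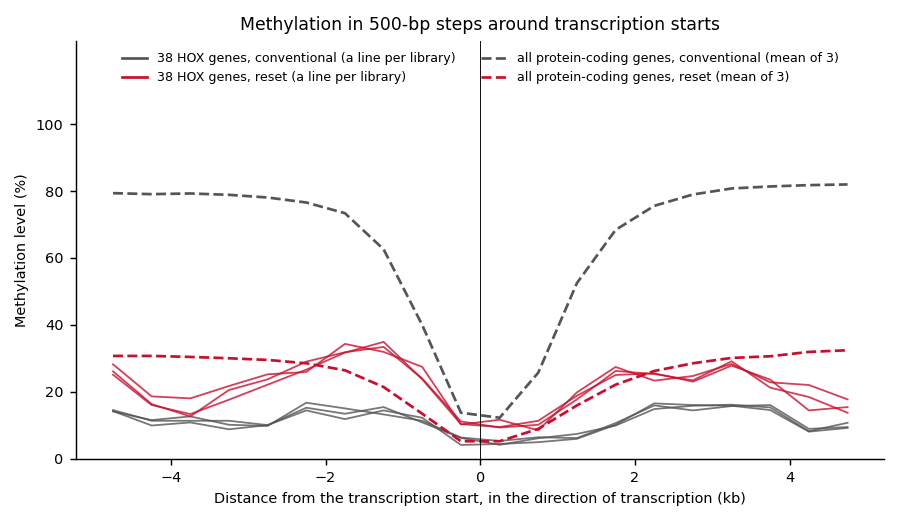
Methylation level (%, vertical axis) in 500-bp steps against the distance from the transcription start (kb), with a solid line per library over the 38 HOX genes and dashed lines for the mean of 3 libraries over all protein-coding genes (grey, conventional; red, reset). The mean of the HOX lines of reset cells falls to 10.1% just after the start and reaches 33.4% before it, above the conventional lines at every step, while the curve of all genes is lower in reset cells throughout.

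The clusters also hold noncoding RNAs, among them antisense transcripts and the miRNAs of the miR-10 and miR-196 families, which target HOX messages. The 5p arms of miR-196 are shown, since they are shared between clusters, from RefSeq (GRCh38.p14), with the seed (bases 2 to 8) in capitals, since a shared seed means a shared set of predicted targets.
hsa-miR-196a-5p: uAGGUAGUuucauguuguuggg
hsa-miR-196b-5p: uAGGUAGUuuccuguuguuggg
miR-196a-5p, made from MIR196A1 in HOXB and MIR196A2 in HOXC, has the same seed as miR-196b-5p from MIR196B in HOXA. MIR196A1 rose from 8.66, 6.50 and 5.26% to 27.8, 21.6 and 21.5% (adjusted p = 5.818e-05). MIR196B was at 5.82, 5.41 and 5.66% and at 3.21, 2.53 and 7.98%, with overlapping groups (adjusted p = 0.618). MIR196A2, at 15.7% and 23.9%, missed the threshold (adjusted p = 0.0565) and passed without conventional library 2 (0.0277) or reset library 1 (0.0401). The differences between these promoters were not tested. MIR10B, the host of hsa-miR-10b-5p, which lies just upstream of HOXD4, rose by 31.0 points, from 11.7, 11.3 and 8.18% to 43.1, 40 and 41.2% (adjusted p = 3.287e-09). The promoters of these miRNAs were placed at the starts of the annotated hairpins, which need not be where transcription begins.

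Of 23 noncoding RNA promoters of the clusters that were tested, 9 were higher, 0 were lower and 14 did not pass the test (quasi-binomial model, Benjamini-Hochberg adjustment over 20452 noncoding promoters). The count of 0 lower held at an unadjusted p under 0.05 and by Fisher's exact test on pooled calls. Over all noncoding promoters 2.86% were higher and 87.6% lower. This background is not a like one, since the 23 all stood at 16.7% or less in conventional cells. A share among noncoding promoters of like level was not taken. The median change was 0.0720 points over the HOX list and -48.8 points over all. HOXC-AS2 rose by 33.2 points, from 9.35, 13.7 and 8.40% to 66.0, 35.3 and 29.8%, with reset library 1 far above the other two. Without that library it rose by 22.1 points (adjusted p = 1.986e-05), less than MIR10B, at 30.2, HOXB-AS4, at 27.3, and HOTTIP, at 23.9. HOXA-AS2 rose by 11.3 points, and by 6.58 without reset library 3 (0.0172). HOTTIP, a noncoding RNA at the 5′ end of HOXA that recruits an activating methyltransferase, rose from 15.7, 13.2 and 9.28% to 40.3, 42.1 and 31.1%. HOTAIR, which lies in HOXC and is known for binding Polycomb, stood at 4.72, 3.72 and 5.05% and at 5.29, 2.81 and 3.70%, with no separation of the groups; it was named after its values were seen. HOXD-AS2 rose by 4.80 points (adjusted p = 0.0221), and its call was lost without conventional library 1 (0.0633) or reset library 1 (0.105). HOXB-AS3 was called lower without reset library 3 (0.0401). HAGLR was called higher without conventional library 1 (0.0131) or reset library 1 (0.0310). Some of these promoters overlap those of members, such as MIR10B with HOXD4, HOXA-AS3 with HOXA4 and HAGLR with HOXD1, so these are not separate measurements.

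Genes that act on or beside the HOX clusters were given as 5 lists, all by their promoters, against the same backgrounds of 3.98% higher and 67.4% lower over all promoters, and 6.55% and 47.1% over those under 20% in conventional cells. Of 17 Polycomb genes, whose products keep HOX genes silent, 0 were higher and 7 were lower in the quasi-binomial test. Of the 16 under 20% in conventional cells, 6 were lower. At an unadjusted p under 0.05, 0 Polycomb genes were higher, as by edgeR, and 2 were by Fisher's exact test on pooled calls. CBX2 was called higher without conventional library 3 (adjusted p = 0.0413) or reset library 3 (0.0254). The largest fall was that of EZH1, a histone H3K27 methyltransferase, from 20.2, 24.6 and 42.3% to 3.23, 6.67 and 6.25%. MTF2 and EED, subunits of the same Polycomb complex, fell by 8.51 and 8.37 points. The other 4 calls were each lost without at least 1 library, and those for EZH2, PHF19 and RNF2 were all lost without reset library 2 (adjusted p = 0.125, 0.0777 and 0.0818). The same calls were lost without conventional library 1 (0.0838, 0.121 and 0.0634), EZH2 also without conventional library 2 (0.0639) and RNF2 without reset library 3 (0.170). SUZ12 was lost without conventional library 2 or 3 (0.0507 and 0.0705) or reset library 3 (0.101), and CBX7 was called lower without conventional library 2 (0.0429). Of 10 trithorax genes, which keep HOX genes active, 0 were higher (0 also unadjusted, by edgeR and by Fisher's exact test) and 6 lower, and of the 9 under 20% in conventional cells 5 were lower. KDM6A, an X-linked H3K27 demethylase, fell from 36.4, 65.8 and 34.2% to 0.330, 0 and 0%, and KMT2D, a histone H3K4 methyltransferase, by 7.80 points. MEN1 fell by 8.17 points, but not past the threshold without conventional library 3 (adjusted p = 0.0535) or reset library 2 (0.0803). The calls for ASH2L and KDM6B were also lost without reset library 2 (0.0643 and 0.0780) or reset library 1 (0.139 and 0.0905), ASH2L without conventional library 1 (0.0869) and KDM6B without conventional library 2 (0.111). KMT2C was called lower without conventional library 3 (0.0148). The median level of both lists in conventional cells was low, at 3.07% and 4.62%.

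Of 9 genes for HOX cofactors, homeodomain proteins that bind DNA together with HOX proteins, 2 were higher and 2 lower. PBX4 fell from 28.6, 29.1 and 18.8% to 0.917, 1.75 and 2.34%, and PKNOX1 fell by 8.63 points. MEIS3 rose from 0, 1.68 and 1.96% to 8.26, 10.5 and 14.4%. The rise of PKNOX2, by 4.52 points, was lost without conventional library 1 or 3 (adjusted p = 0.0535 and 0.117) or reset library 1 or 3 (0.0651 and 0.0688). Of 14 genes of retinoic acid signalling, which turns HOX genes on in order, 2 were higher and 2 lower. CRABP2, a retinoic acid binding protein, rose by 9.25 points and CYP26C1, an enzyme that degrades retinoic acid, fell by 42.7 points, from 50.3, 87.3 and 86.1% to 37.4, 21.5 and 36.5%. CRABP1 rose by 8.21 points, with an adjusted p of 0.0609 without reset library 2. RARB fell by 4.97 points, and its call was lost without conventional library 1 or 3 (0.0529 and 0.0821) or reset library 2 or 3 (0.0770 and 0.105). RXRB was called lower without conventional library 2 (0.0216) or reset library 3 (0.0382), RXRA, which was at -1.13 points with all libraries, higher without conventional library 2 (0.00944) and CYP26A1 higher without conventional library 1 (0.0358).

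The EVX genes sit at the posterior ends of HOXA and HOXD, and the ParaHox genes descend from a cluster that is the sister of the HOX clusters. Of 8 ParaHox and EVX genes 4 were higher and 1 lower. GSX2, a ParaHox gene of the ventral forebrain on chromosome 4, rose from 1.29, 0 and 1.10% to 47.9, 49.3 and 68.8% (adjusted p = 1.055e-07). EVX2, the neighbour of HOXD13, rose from 8.54, 4.70 and 6.67% to 49.0, 44.2 and 34.6%, and EVX1, the neighbour of HOXA13, by 6.74 points to 8.48% ± 3.74 (SD, n = 3). The reset libraries of all 3 lay above the conventional ones. PDX1, the fourth, rose by 5.14 points at an adjusted p of 0.0443, and CDX1, an activator of HOX genes, fell by 8.32 points. The call for CDX1 was lost without conventional library 3 (0.0687) or reset library 3 (0.0696), and that for PDX1 without any 1 of the libraries (0.0520 to 0.124).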

How the data were processed

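Whole-genome bisulfite reads of 3 conventional and 3 reset H9 libraries were processed by the authors, whose processing notes name Trim Galore, Bismark 0.9.0, Bowtie2 and GRCh37. Removal of duplicate reads is not given in the sources used here. The deposited files give, for every covered CpG cytosine, the percentage methylated and the number of calls of either kind. The deposited counts were summed here and the deposited percent column was not averaged. Positions, which the files count from 0, are printed from 1.

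Regions came from GENCODE release 44 on GRCh37, and 38 of its 39 HOX genes are reported here. The members and lists were chosen with earlier results of these data known. Promoters, bodies, noncoding promoters and 1-kb windows entered the test where no library had fewer than 10 calls. The test was a logistic model with quasi-binomial errors (likelihood-ratio F test, dispersion moderated by limma 3.58.1, Benjamini-Hochberg adjustment over all features of a kind, threshold 0.05). "Higher" and "lower" mean past that threshold in reset against conventional cells. Levels of clusters, flanks and classes are pooled calls per library, compared by an exact two-sided permutation test (20 permutations). Named were all called promoters, the largest body and window changes, and up to 3 genes per list and direction; members needed to close a count or overlap statement were added. Alternatives were other call minimums, Fisher's exact test, edgeR 4.0.16 (promoters), a replicate block, other region limits and leaving out each library. The model was tested on simulated data. The median depth was 171 to 182 calls per promoter and library, and 28 to 35 per window. Repeated copies of one molecule are not told apart, so counts overstate independent evidence. No 2 libraries of a group were alike within sampling noise (chi-square per degree of freedom 1.70 to 2.54).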

Additional observations from a re-analysis of the deposited data

How the results depend on the processing

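Cluster levels, differences between clusters, cluster against flanks and paralogue classes kept their direction in 133 of 134 alternative values, leaving out the replicate block, which leaves a level as it is. Most of these values left out a single library. The groups did not overlap in any of these results, so leaving out a library could not reverse a direction. The sign against flanks of 100 kb was also fixed by the low start of the clusters. The exception to a kept direction was HOXB, which changed by 5.38 points when taken from HOXB1 to HOXB9. On that span HOXB minus HOXC shrank from -10.5 to -0.101 points (exact permutation p = 0.7). The size of the difference from the flanks moved with their length, from 15.1 to 25.8 points at 50 kb to 39.7 to 55.1 at 250 kb. The 6 named bodies and 12 named windows kept direction and call in all 66 and 117 alternative values. The 17 called promoters kept both in 184 and lost the call in 36. HOXB1 changed by -2.67 points from 2000 bp before to 500 bp after the start (adjusted p = 0.543, quasi-binomial model). Promoters called higher numbered 8 from -500 to +500 bp and 21 from -2000 to +500 bp (15 as reported), and 22 by Fisher's exact test on pooled calls. Promoters called lower (2 as reported) numbered 1 with at least 30 calls or the replicate block, 0 from -2000 to +500 bp, and 1 to 3 on leaving out single libraries. Leaving out single libraries gave 1 to 2 bodies lower, 0 to 1 noncoding promoters lower and 11 to 17 regulator promoters lower (18 as reported). With at least 30 calls, 33 windows were lower (113 as reported), as 349 windows were then tested. With a rise of at least 20 points, 97 windows were raised (164 as reported). The replicate numbers showed no sign of pairing the libraries. Deviations of same-numbered libraries correlated at 0.0094, 0.0076 and 0.0015 over 17815 promoters, and those of other pairs at -0.0201 to 0.0119. Sampling noise in single promoters could hide a pairing, so these values cannot exclude it. With the replicate block 13 promoters and 25 bodies were higher, 188 windows were higher and 156 raised, and an exact permutation by sign flips gave p = 0.25, the smallest it can give, for all level results. Depth was lowest for windows, at a median of 28 to 35 calls a library over all windows tested. Its part in the window calls was not tested.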

Other observations

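Sorted by distance to the nearest member start, the 38 HOX windows that hold a start went from 5.30% to 11.0%. The 136 windows at 1 to 2000 bp from a start went from 10.2% to 21.8%, and 61 of them were raised. The 129 windows at 2001 to 5000 bp went from 13.4% to 22.4%. The 199 windows farther away went from 28.1% to 25.5%, and 86 of these were lower and 66 higher. The interval between HOXB9 and HOXB13 held 89 of the 199, with 68 of the lower ones. The other 110 went from 14.6% to 25.2%, and 18 of them were lower and 58 higher. Over all windows of the genome, at any distance from a start, 98.3% were lower, 0.421% higher and 0.249% raised. That division was chosen after the data had been seen.

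Within the HOXB9 to HOXB13 interval 13 of 95 tested windows were higher, 68 were lower and 8 were raised. Over all windows 0.421% were higher, 98.3% lower and 0.249% raised.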
